A study of Mus musculus with 6 samples.

Results

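Eef1a1 and Eef1a2 encode the eEF1A isoforms, the cytosolic translation elongation factors, and are the 2 genes described here of the 55487 genes counted in mouse aorta. They were taken by gene symbol, and the pair was chosen from the difference in Eef1a2 between Prdm16-deleted and control aortas in these same libraries. The fold changes and shares of both genes in that contrast are therefore given as a description, with no test. Eef1a2 lay near 2.48 CPM (the count scaled to library size) in control aortas and near 38.7 CPM in the Prdm16-deleted aortas, while Eef1a1 lay between 2226 and 2580 CPM in every library.

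eEF1A binds GTP and aminoacyl-tRNA and delivers the tRNA to the ribosome, and it leaves the ribosome as the GDP form once the codon is matched. The eEF1B complex then exchanges GDP for GTP so that eEF1A can be used again. Eef1a1 is transcribed in nearly every cell type, whereas Eef1a2 is known as the isoform of adult cardiomyocytes, skeletal muscle fibres and neurons, and in skeletal muscle and neurons it takes over from Eef1a1 after birth.

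Bulk RNA-seq was made from the aortas of 6 male C57BL/6 mice, 3 in each group, with the adventitia removed. Both groups carried Myh11-CreERT2, a tamoxifen-activated recombinase driven by a smooth muscle myosin promoter from a transgene on the Y chromosome, and both received tamoxifen from 8 weeks of age, followed by 2 weeks of washout and a further 60 days. The iSM KO mice were homozygous for a Prdm16 allele with floxed exon 9, and the Control mice, bred from the same kind of cross, were homozygous for wild-type Prdm16, so the Control group had active Cre but no floxed allele. Prdm16 encodes a zinc finger transcription factor, and its deletion was restricted to Myh11-expressing cells, whereas endothelial cells and other cells of the vessel wall kept the gene.

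The libraries held between 24911609 (Control 3) and 40460467 (iSM KO 1) estimated counts, of which 59% (Control 3) to 67.6% fell on protein-coding genes. Prdm16, the targeted gene, was at 183, 223 and 179 CPM in Control and at 93.8, 113 and 79.8 CPM in iSM KO, a log2 fold change of -1.03 (SE 0.14, adjusted p = 0.00265, Benjamini-Hochberg over 16565 tested genes, edgeR's quasi-likelihood test). These counts cover the whole gene, not the deleted exon alone. The smooth muscle markers Myh11, Acta2, Cnn1, Tagln, Smtn, Myocd, Lmod1 and Des summed to 22497 to 27516 CPM in Control and to 24268 to 26745 CPM in iSM KO. Most of this sum was Myh11, Acta2 and Tagln. At an adjusted p under 0.05 by the same test, 2 of the 8 were higher (25%, against 4.26% over all genes) and 0 lower. The 2 were Myocd, with a log2 fold change of 0.65 (SE 0.12), and Des, with 1.24 (SE 0.18). In bulk samples, fewer cells of a type and less RNA per cell cannot be told apart.

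Eef1a1 (ENSMUSG00000037742) lies on the minus strand at chr9:78478449-78489151 of GRCm38, and Eef1a2 (ENSMUSG00000016349) on the minus strand at chr2:181147653-181157014. Their annotated coding transcripts have the same layout of 8 exons, 7 of them coding, and encode 462 and 463 residues. The first 6 coding exons have identical lengths in both genes, 144, 180, 297, 151, 257 and 235 bases, and the last has 122 coding bases in Eef1a1 and 125 in Eef1a2. The Eef1a1 transcript is 1794 bases long and the Eef1a2 transcript 2084 bases, with an untranslated leader of 120 bases in Eef1a1 and 366 bases in Eef1a2.

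The coding part of exon 2 is shown because it is the most similar coding exon, with 86.1% identical bases, and because it shows at which bases a read can be assigned to the right gene. Both sequences run from the start codon, 5′ to 3′, and capitals mark the bases that differ (GENCODE M21, GRCm38).
Eef1a1 chr9:78480511-78480654: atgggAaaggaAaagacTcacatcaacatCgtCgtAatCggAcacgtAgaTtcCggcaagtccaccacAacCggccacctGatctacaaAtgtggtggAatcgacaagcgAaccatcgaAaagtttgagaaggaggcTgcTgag
Eef1a2 chr2:181155263-181155406: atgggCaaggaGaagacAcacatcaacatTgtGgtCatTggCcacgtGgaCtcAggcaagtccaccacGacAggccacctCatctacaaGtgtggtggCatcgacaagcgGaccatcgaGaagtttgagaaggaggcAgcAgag

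Over the whole coding sequence, 1110 of 1386 aligned bases (80.1%) were identical, and 427 of 462 encoded residues (92.4%). Of the 276 differing bases, 224 (81.2%) were at the last position of a codon, 34 at the first and 18 at the middle position. Eef1a2 used G or C at the last codon position in 72.8% of codons and Eef1a1 in 51.9%. The exons differed in similarity from 74.8% identical bases in exon 5 to 86.1% in exon 2.

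**Figure D1:**
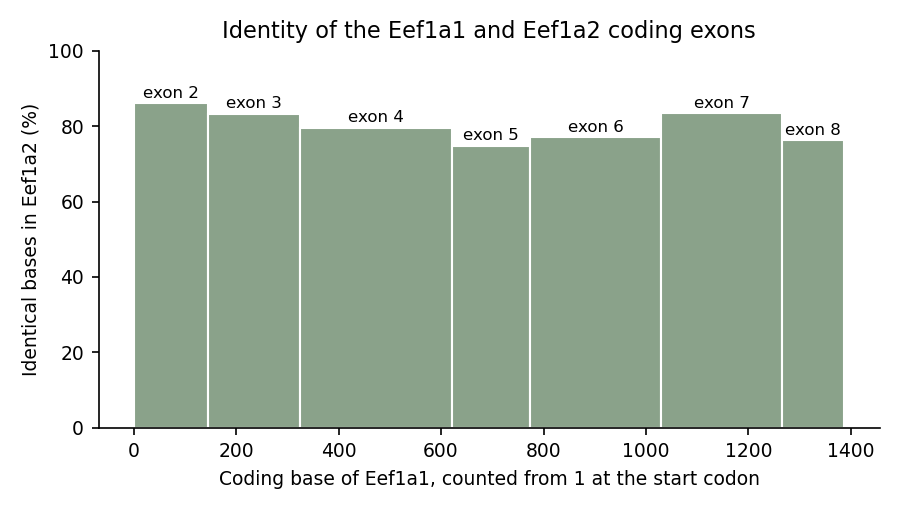
Percentage of bases identical between Eef1a1 and Eef1a2 (vertical axis) for each coding exon, drawn to scale along the Eef1a1 coding sequence in bases from the start codon (horizontal axis). Each bar is 1 exon; all bars stand between 74.8% and 86.1%, so no coding exon is shared without differences.

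The longest run without a difference was 23 bases. It is shown in capitals with the 15 bases on either side (coding bases 289 to 341, counted from 1 at the start codon). This run was chosen because no longer coding stretch is the same in both isoforms.
Eef1a1: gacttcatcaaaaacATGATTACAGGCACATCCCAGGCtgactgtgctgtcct
Eef1a2: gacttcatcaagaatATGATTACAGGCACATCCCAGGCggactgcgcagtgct

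Paired reads of 150 bases were sequenced, and every window of that length in the aligned coding sequences held between 19 and 42 differences. The estimated counts of Eef1a2 were whole numbers in all 6 libraries, whereas those of Eef1a1 were not. Eef1a1, unlike Eef1a2, has near-identical annotated copies: 12 genes matched its transcript at 95% identity or more over most of their own length, 9 of them pseudogenes, and 0 genes matched Eef1a2. The 12 include Gm26377, which lies within Eef1a1 itself and had no counts. The counts of these copies summed to 247 to 376 per library, 0.351% to 0.414% of the Eef1a1 count, the most abundant being Gm13456 at 118.76 to 170.47 counts and Gm6548 at 80 to 149.62 counts. How many reads from copies were counted as Eef1a1 is not known from these values.

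The sequences before the transcription starts also differed. In the 250 bases upstream of the RefSeq start (GRCm38.p6), Eef1a1 had 18 CG dinucleotides and Eef1a2 had 4, against a median of 6 over 32851 annotated mouse promoters. The Eef1a2 upstream sequence was 76.8% C or T on the transcribed gene's strand, a higher share than in 99.9% of promoters, and the Eef1a1 sequence was 40.4% C or T. These are descriptions of the reference sequence, and binding to it was not measured here.

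Eef1a2, the isoform of striated muscle and neurons, had 87, 75 and 69 counts in Control and 1584, 1369 and 1388 counts in iSM KO. After scaling for library size, its levels were 2.6, 1.95 and 2.89 CPM in Control and 38.9, 39.2 and 38 CPM in iSM KO. All 3 iSM KO libraries lay far above all 3 Control libraries. The means were 2.48 ± 0.482 CPM (SD, n = 3) and 38.7 ± 0.631 CPM (SD, n = 3), 15.6 times as high in iSM KO, and the fitted log2 fold change was 3.98 (SE 0.14). Among the tested genes, 12 had a larger positive log2 fold change. Eef1a2 exceeded the count minimum of 10 in every library of both groups, so it did not enter through the iSM KO group alone.

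The iSM KO libraries lay close together. The coefficient of variation of Eef1a2 was 1.63% in iSM KO, where counting error alone gives 2.63%, and 19.4% in Control, where counting error alone gives 11.4%. The median over all tested genes was 9.23% in iSM KO and 13% in Control.

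Eef1a1, the housekeeping isoform, had 86416.36, 90814.47 and 61223.29 estimated counts in Control and 90734.57, 78732.4 and 82423.22 in iSM KO. Scaled, its levels were 2580, 2363 and 2567 CPM in Control and 2226, 2256 and 2257 CPM in iSM KO. The iSM KO libraries were all lower, with Control 2 the closest to them, and the groups did not overlap. The share of all tested genes that separate in this way is not given here, so nothing is read from the separation. The means were 2503 ± 122 CPM (SD, n = 3) and 2246 ± 17.4 CPM (SD, n = 3), and the fitted log2 fold change was -0.16 (SE 0.10). This was a small difference in the ordering of all tested genes, of which 30.5% had a lower log2 fold change and whose median was -0.014.

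**Figure D2:**
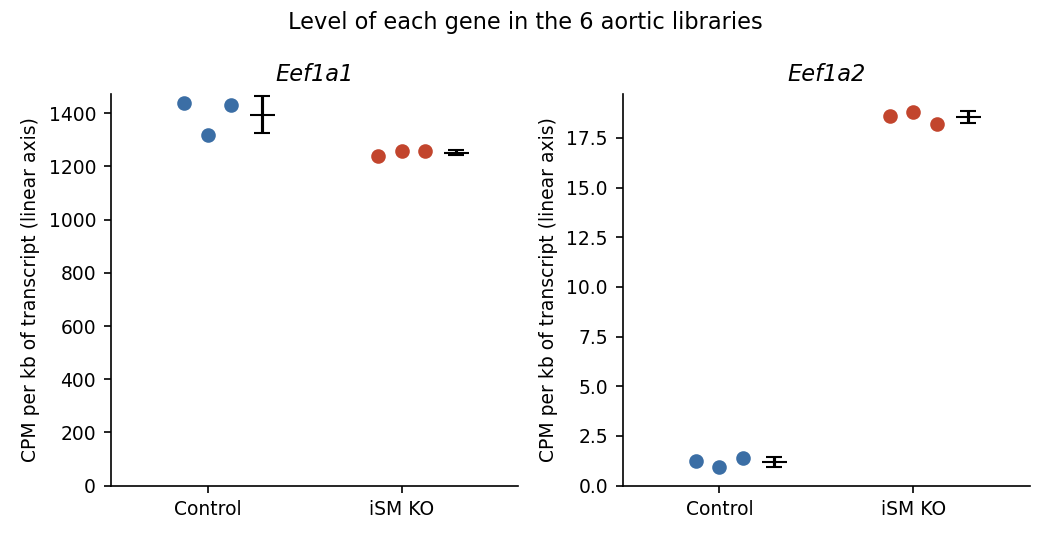
Level of Eef1a1 (left) and Eef1a2 (right) in CPM per kilobase of transcript (linear axes from 0, on separate scales) in each Control and iSM KO library. Points are libraries and the bars beside them are the mean ± SD of 3; Eef1a1 lies at 1395 ± 67.8 in Control and 1252 ± 9.68 in iSM KO, and Eef1a2 at 1.19 ± 0.231 and 18.6 ± 0.303.

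Levels of the 2 isoforms were compared per kilobase of transcript. Eef1a1 was at 1395 ± 67.8 CPM per kilobase in Control and at 1252 ± 9.68 in iSM KO (SD, n = 3 each). This placed it as the 14th and the 20th most abundant of 13147 tested protein-coding genes. Protein-coding genes that did not pass the count minimum were left out of this ranking. Eef1a2 was at 1.19 ± 0.231 CPM per kilobase in Control, above 19.6% of these tested genes, and at 18.6 ± 0.303 in iSM KO, above 85.9% of them. Among the tested genes, Eef1a2 thus stood with the less abundant in the control aorta and with the more abundant in the iSM KO aorta. It remained far below Eef1a1 in both.

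Because both genes were counted in the same library, the share of Eef1a2 in their sum does not depend on the scaling between libraries. Eef1a2 made up 0.101%, 0.0825% and 0.113% of the counts of both genes in Control, with 95% Wilson intervals of 0.0816 to 0.124%, 0.0658 to 0.103% and 0.089 to 0.142%. In iSM KO it made up 1.72%, 1.71% and 1.66%, with intervals of 1.63 to 1.8%, 1.62 to 1.8% and 1.57 to 1.74%. The intervals cover counting error only. They do not cover variation between animals. The intervals of the Control libraries overlapped one another, as did those of the iSM KO libraries.

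The mean share was 0.0986 ± 0.0151% in Control and 1.69 ± 0.0327% in iSM KO (SD, n = 3 each), 17.2 times as high. Divided by transcript length, the shares were 0.0849 ± 0.013% and 1.46 ± 0.0283%. Eef1a1 accordingly made up 99.89% to 99.92% of the counts of both genes in Control and 98.28% to 98.34% in iSM KO. Put as a ratio, there were 887 to 1211 Eef1a1 counts for each Eef1a2 count in Control and 57.3 to 59.4 in iSM KO.

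**Figure D3:**
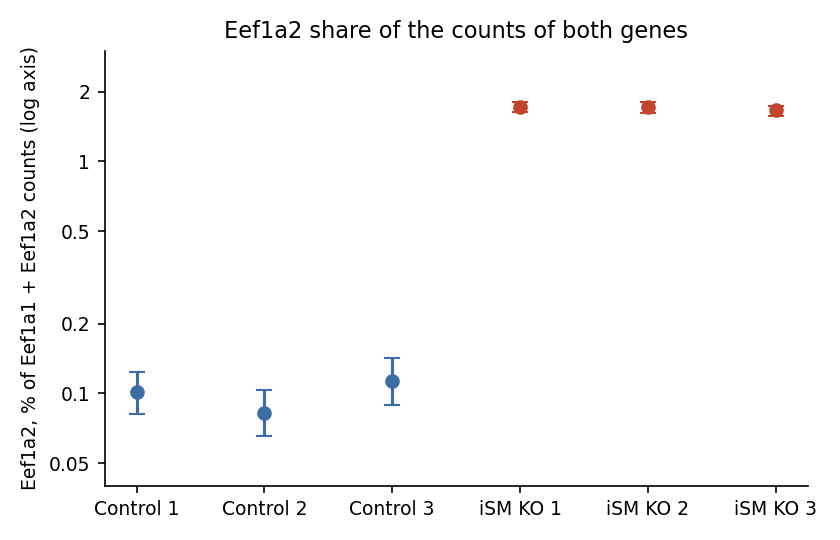
Eef1a2 as a percentage of the Eef1a1 plus Eef1a2 counts (log axis) in each of the 6 libraries, with 95% Wilson intervals. The Control libraries lie between 0.0825% and 0.113% and the iSM KO libraries between 1.66% and 1.72%.

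The gain in Eef1a2 was small against the pool of both transcripts. The summed level was 2582, 2365 and 2570 CPM in Control and 2265, 2295 and 2295 CPM in iSM KO. The iSM KO libraries were all lower than the Control libraries, and as for Eef1a1 nothing is read from that ordering. The mean sum was 2506 ± 122 CPM in Control and 2285 ± 17.2 CPM in iSM KO (SD, n = 3 each). The difference of the means was -221 CPM for the sum, made of -257 CPM for Eef1a1 and 36.2 CPM for Eef1a2.

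The other subunits of eEF1 and the elongation factors beside eEF1A did not move in the way Eef1a2 did. The list held the exchange factor subunits Eef1b2, Eef1d and Eef1g, the scaffold protein Eef1e1, the valyl-tRNA synthetase Vars that binds eEF1, the translocase Eef2 and its kinase Eef2k, the elongation factors Eif5a and Eif5a2, and the selenocysteine-specific factor Eefsec. Of these 10 genes, 0 were called by edgeR's quasi-likelihood test at an adjusted p under 0.05, 0 had an unadjusted p under 0.05, and 0 were called by DESeq2 or limma-voom. Over all 16565 tested genes, 4.26% were called higher and 3.3% lower in iSM KO. Their share with an unadjusted p under 0.05 is not given here. The log2 fold changes in the list ran from -0.3 for Eif5a2 to 0.1 for Eef1e1 and Eef2k, with a median of -0.053.

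Eef2, which moves the ribosome along by a codon after eEF1A has delivered its tRNA, was at 1234, 1165 and 1164 CPM in Control and 1137, 1184 and 1257 CPM in iSM KO. The groups overlapped, and the log2 fold change was 0.01 (SE 0.09). Eef1b2, which carries the catalytic exchange domain, was at 86.1, 83.9 and 107 CPM in Control and at 77.1, 80.4 and 87.8 CPM in iSM KO, again with overlap (log2 fold change -0.17, SE 0.11). Eef1g was at 116 ± 5.47 CPM and 111 ± 2.88 CPM, and Eef1d at 62.8 ± 5.82 CPM and 59.9 ± 2.46 CPM (SD, n = 3 each). Summed over the list, the level was 1765 to 1866 CPM in Control and 1740 to 1879 CPM in iSM KO.

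The enzymes that methylate eEF1A had mean levels in Control from 0.226 CPM for Eef1akmt3 to 8.83 CPM for Eef1aknmt. Of the 5 listed methyltransferases, 4 were tested, and all 4 log2 fold changes were below 0, from -0.45 for Eef1akmt4 to -0.01 for Eef1aknmt, the enzyme of the N-terminus. Eef1akmt2, at 7.02 ± 0.755 CPM in Control and 5.47 ± 0.314 CPM in iSM KO (SD, n = 3 each), was the sole member with an unadjusted p under 0.05, and its adjusted p was 0.165, Benjamini-Hochberg, edgeR's quasi-likelihood test. Hbs1l, Gspt1, Gspt2, Gtpbp1 and Gtpbp2, GTPases of the same family that act in ribosome rescue, termination and mRNA turnover, had log2 fold changes from -0.04 to 0.23.

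Taking methyltransferases, related GTPases, mitochondrial elongation factors, aminoacyl-tRNA synthetases, initiation factors and ribosomal proteins as a single set, 155 of 156 listed genes were tested. Of these, 0 were called higher and 4 (2.58%) lower by edgeR, against the 4.26% and 3.3% over all genes. DESeq2 called 0 higher and 6 lower, limma-voom called 0 higher and 3 lower, and 28 had an unadjusted p under 0.05. The share of all tested genes under that unadjusted threshold is not given here, so nothing is read from the 28. None of the tested genes of translation approached the Eef1a2 fold change: among initiation factors, the largest log2 fold change was 0.32.

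All 4 genes called lower were cytosolic ribosomal proteins, 5.06% of the 79 in that list, against 3.3% over all genes. Rpl22, a subunit of the large ribosomal subunit, was at 91.3, 69.9 and 94.2 CPM in Control and 58, 61.9 and 58.8 CPM in iSM KO, with a log2 fold change of -0.51 (SE 0.11, adjusted p = 0.0268, Benjamini-Hochberg, edgeR's quasi-likelihood test). The others were Rpl36a at -0.36, Rps23 at -0.35 and Rpl27a at -0.3. Over the 79 ribosomal protein genes, 73 log2 fold changes were below 0 and the median was -0.163, beside -0.16 for Eef1a1 and -0.014 for all tested genes.

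The ribosomal protein genes summed to 12001 to 13622 CPM in Control and 11386 to 11638 CPM in iSM KO. Eef1a1 mRNA, like ribosomal protein mRNAs, is known as a member of the class that begins with a pyrimidine tract. The 4 calls depended on which libraries were fitted: 0 were made without Control 1, Control 3, iSM KO 1 or iSM KO 2, 1 without iSM KO 3, and 9 were called without Control 2. The median stayed below 0 in each of these fits and was -0.089 without Control 3, the library with the lowest total. Ribosomal protein genes have many processed pseudogenes, so their counts are uncertain where the counting could split reads.

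**Figure D4:**
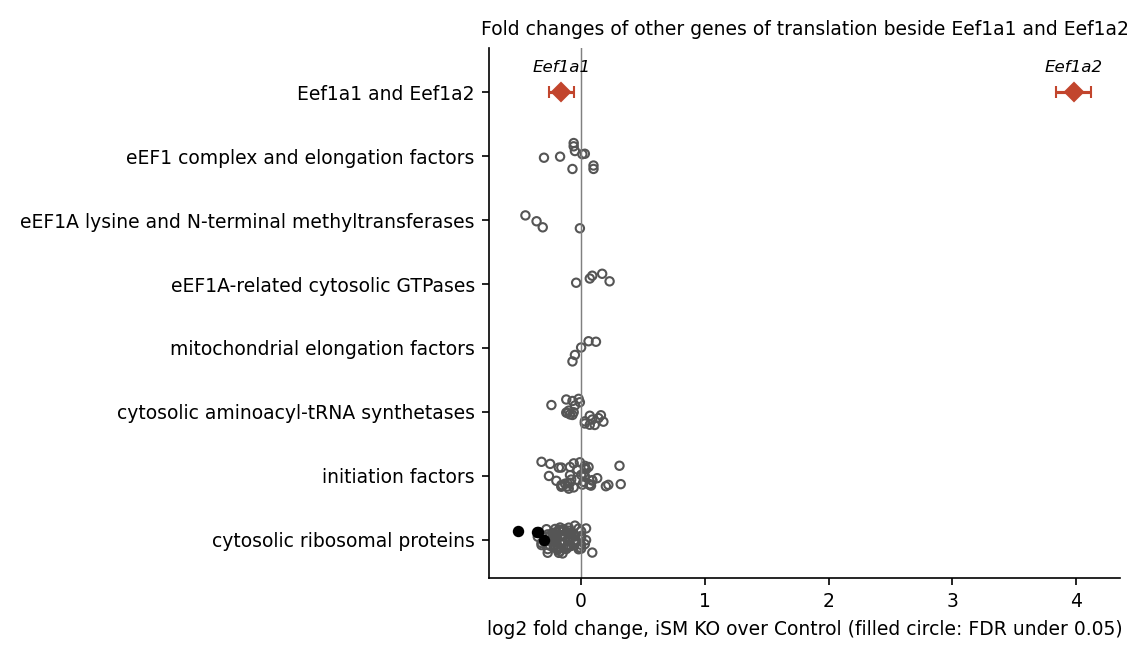
Log2 fold change, iSM KO over Control (horizontal axis), of Eef1a1 and Eef1a2 (diamonds with SE) and of the tested genes of 7 translation gene lists (circles, 1 per gene, spread vertically for legibility). Filled circles have an adjusted p under 0.05 by edgeR; the 4 filled circles are ribosomal proteins, and Eef1a2 at 3.98 stands apart from all listed genes, which lie between -0.51 and 0.32.

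Because Eef1a2 is the isoform of cardiomyocytes, skeletal muscle fibres and neurons, the markers of these cells were read beside it. Of 44 listed markers, 20 were tested, of which 5 were called higher and 1 lower by edgeR (25% and 5%, against 4.26% and 3.3% over all genes), and 3 were called without iSM KO 2. The 5 include Mybpc3, which passed the count minimum through the iSM KO libraries alone, so nothing is read from the share. The defining genes of skeletal muscle were at or near 0: Myog had no count in any library, and Myh1, Myh2, Myh4, Acta1, Tnni2, Mylpf and Atp2a1 were under 1 CPM in all 6. In the skeletal muscle list, 12 of 14 genes were under 1 CPM in every library.

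Des, the intermediate filament protein of all muscle types, smooth muscle included, was the called gene of the skeletal muscle list, at 105, 159 and 149 CPM in Control and 330, 381 and 264 CPM in iSM KO. Its log2 fold change was 1.24 (SE 0.18, adjusted p = 0.00381, Benjamini-Hochberg, edgeR's quasi-likelihood test). The summed level of the skeletal muscle list, 109 to 164 CPM in Control and 267 to 383 CPM in iSM KO, was mostly Des.

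The cardiomyocyte markers did not move as a block. Tnnt2, cardiac troponin T, was at 17.5, 10.6 and 13.5 CPM in Control and 707, 702 and 744 CPM in iSM KO, a log2 fold change of 5.69 (SE 0.19, adjusted p = 1.71e-06, Benjamini-Hochberg, edgeR's quasi-likelihood test). Mybpc3, cardiac myosin binding protein C, was at 0.269, 0.026 and 0 CPM in Control and 1.82, 1.58 and 0.821 CPM in iSM KO (log2 fold change 3.72, SE 0.73). Ryr2, the calcium release channel, was at 112, 142 and 128 CPM in Control and 183, 206 and 152 CPM in iSM KO (log2 fold change 0.50).

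Other sarcomeric genes of the list differed less, were lower in iSM KO or were near 0. Myl4, an atrial myosin light chain, was at 3.43 ± 0.611 CPM in Control and 4.74 ± 0.382 CPM in iSM KO, and the giant sarcomere protein gene Ttn at 6.99 ± 0.745 and 8.61 ± 1.46 CPM (SD, n = 3 each), neither of them called. Myh6, the alpha myosin heavy chain of the heart, was at 0.98 ± 0.72 CPM in Control and 0.54 ± 0.224 CPM in iSM KO, and Actc1, cardiac actin, at 1.27 ± 0.554 and 0.51 ± 0.239 CPM (SD, n = 3 each). The log2 fold changes of Myh6 and Actc1 were -0.88 and -1.32, and neither gene was called. Myh7, Myl2, Myl3, Myl7, Tnni3 and Nppa were under 1 CPM in all 6 libraries. The list summed to 153 to 172 CPM in Control and 916 to 928 CPM in iSM KO, and in iSM KO most of the sum was Tnnt2.

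Among 16 neuron markers, 8 were tested, with 1 called higher and 1 lower. Tubb3, a neuronal beta tubulin, was at 1.58, 1.33 and 1.55 CPM in Control and 3.14, 4.16 and 5.31 CPM in iSM KO (log2 fold change 1.5, SE 0.24). Uchl1, a neuronal ubiquitin hydrolase, was at 57.6, 48 and 51.8 CPM in Control and 38.9, 36.7 and 37.7 CPM in iSM KO (log2 fold change -0.47, SE 0.09). The list summed to 58.4 to 71 CPM in Control and 49.5 to 62.1 CPM in iSM KO, and most of the sum was Uchl1 in both groups. Of the 8 tested markers, 5 had a log2 fold change above 0 and 3 below, with a median of 0.828. Snap25 and Syt1, among the 5, were highest in iSM KO 3, at 3.61 and 3.04 CPM. Dbh, the noradrenaline-synthesising enzyme of sympathetic neurons, was at 0 in all libraries.

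**Figure D5:**
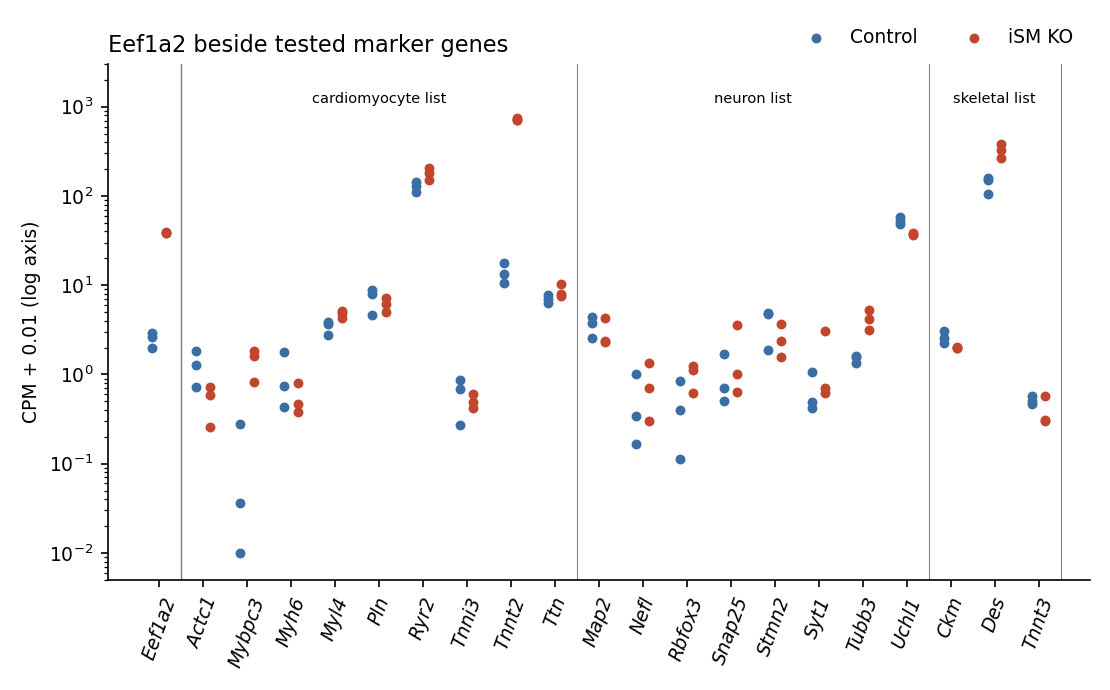
Level of Eef1a2 and of the 20 tested striated muscle and neuron markers, in CPM plus 0.01 (log axis), in each library; blue points are Control and red points iSM KO. The largest log2 fold changes are those of Tnnt2 (5.69), Eef1a2 (3.98) and Mybpc3 (3.72), the last from near 0 CPM in Control. Those of Myh6, Actc1 and Pln are below 0, at -0.88, -1.32 and -0.2, and that of Ttn is 0.3.

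Markers of other cells of the vessel wall were read beside the isoforms as well. Adipocyte markers summed to 27.8 to 115 CPM in Control and 9.54 to 14.2 CPM in iSM KO, with 5 of 6 tested genes called lower by edgeR against 3.3% over all genes. The 5 include Adipoq, which passed the count minimum through the Control libraries alone, so nothing is read from that share. Fibroblast markers summed to 1069 to 1309 and 789 to 812 CPM, and all 6 had an unadjusted p under 0.05 but none was called. Without the share of all genes under that unadjusted threshold, nothing is read from the 6. Endothelial markers summed to 479 to 987 CPM in Control and 251 to 759 CPM in iSM KO, macrophage markers to 23.6 to 28.5 and 9.91 to 28.9 CPM, and Schwann cell markers to 23.4 to 26.3 and 26.3 to 27.8 CPM. No gene of these lists was called by edgeR either, and the endothelial and macrophage sums overlapped between the groups. The 6 T and B cell markers were under 1 CPM in every library. The part of these cells in the lower Eef1a1 level was not tested.

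Around Eef1a2, 10 of 18 annotated genes within 200 kb were tested and 1 was called higher, against 4.26% of all tested genes. On the higher-coordinate side the nearest tested gene was Ppdpf, 30.2 kb away, at 14 ± 2.16 CPM in Control and 12.1 ± 1.08 CPM in iSM KO (SD, n = 3 each). Nkain4, 193 kb away, was the called gene, at 0.343 ± 0.195 CPM in Control and 1.37 ± 0.178 CPM in iSM KO (SD, n = 3 each). It passed the count minimum through the iSM KO libraries alone. Its log2 fold change was 2.06, beside 3.98 for Eef1a2.

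Around Eef1a1, 4 of 19 annotated genes within 200 kb were tested and 1 was called higher, against the same 4.26% over all genes. On the lower-coordinate side the nearest was Mto1, an enzyme of mitochondrial tRNA modification, 3.1 kb away with a log2 fold change of -0.03, followed by Cgas, the cytosolic DNA sensor, 35.2 kb away. Cgas was at 0.806, 0.703 and 1.05 CPM in Control and 1.64, 1.2 and 1.12 CPM in iSM KO, with a log2 fold change of 0.65, and was not called. On the higher-coordinate side the nearest was Slc17a5, the lysosomal sialic acid exporter, 47.3 kb away with -0.08. Cd109, 126.4 kb away, was called higher with a log2 fold change of 0.50. The 2 calls around the isoforms fell to 0 without iSM KO 2, and 1 call was made without Control 1, Control 3 or iSM KO 1.

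The genes whose level followed Eef1a2 most closely over the 6 libraries, by Pearson's r of log2 CPM, were Ift140 (0.9992), Agpat4 (0.9985), Kcnc4 (0.9984), Ndufs5-ps (0.9982) and Ctr9 (0.998). Their log2 fold changes ran from 0.26 for Ift140 to 3.92 for Ndufs5-ps, a pseudogene at 0.806, 0.468 and 0.922 CPM in Control and 10.9, 11 and 10.5 CPM in iSM KO, beside 3.98 for Eef1a2. Ift140, a component of intraflagellar transport, was at 22.1, 21.9 and 22.2 CPM in Control and 26.4, 26.3 and 26.4 CPM in iSM KO, while the potassium channel gene Kcnc4 was at 39.3, 38.4 and 43.5 CPM and 129, 131 and 136 CPM.

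Closest to Eef1a1 were Bcas2 (0.9963), Hadh (0.9962), Rpl22 (0.9948), Itgb8 (0.9931) and Gtpbp10 (0.9916), all lower in iSM KO, and in each of them Control 2 was the lowest of the Control libraries, as for Eef1a1. An r above 0.95 was reached by 383 genes (2.31% of those tested) for Eef1a2 and by 197 (1.19%) for Eef1a1. The points lie in 2 groups and share library preparation and depth, so these values only describe likeness.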

How the data were processed

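Total RNA was depleted of ribosomal RNA and sequenced from 6 mouse aortas (3 Control, 3 iSM KO). The authors aligned reads to mm10 with DRAGEN and deposited estimated counts per gene, 10.9% to 12.2% of which are not whole, with no normalization; how reads matching several genes were shared is not given in the sources used here. Counts were rounded. A gene was kept where its count exceeded 10 in every library of a group (16565 genes), then scaled by TMM and fitted with edgeR 4.0.16's quasi-likelihood model (R 4.3.3) on all 6 libraries, with Benjamini-Hochberg adjustment and a threshold of 0.05; DESeq2 1.42.0, limma-voom (limma 3.58.1), other filters and scalings, a replicate block and leaving out each library were the alternatives. Log2 CPM used a prior count of 2. Each SE given for an edgeR log2 fold change is its absolute value divided by the square root of the quasi-likelihood F statistic. The fits were tested on simulated data. Annotation and coding sequences came from GENCODE M21, promoters from RefSeq, and copies from blastn 2.17.0 (at least 95% identity over 100 bp). The genes described and the gene lists were chosen with earlier results of these data known. Beside Eef1a1, Eef1a2 and Prdm16, the text names the elongation factor list, members of other lists past the threshold or defining the list, the nearest tested neighbours (1 is not reported here), the 5 genes most like each isoform, and, chosen after their values were seen, Eef1akmt2, Eef1akmt4, Eef1aknmt, Cgas, Cd109 and Nkain4. Animals, 3 per group, were the replicates.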

Additional observations from a re-analysis of the deposited data

How the results depend on the processing

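Over 12 alternatives each, the Eef1a2 log2 fold change lay between 3.824 and 4.091 and that of Eef1a1 between -0.194 and -0.127. The Control share of Eef1a2 stayed within its spread, and the iSM KO share was 1.461% per transcript length. The log2 ratio of the summed level was -0.133, and -0.188 when scaled to protein-coding counts alone. Leaving out each library in turn gave 516 to 1402 called genes in place of 1252 (516 without iSM KO 2, 624 without iSM KO 1), 0 to 11 translation genes in place of 4, 3 to 6 striated muscle and neuron markers in place of 6, and 0 to 2 neighbours in place of 2. The elongation factor list gave 0 calls in every alternative. Same-numbered Control and iSM KO libraries did not deviate together (correlations of -0.132, -0.046 and -0.107), and the labels share only a number; with the replicate block, 775 genes, 0 translation genes and 1 neighbour were called. The annotation used here ends Eef1a2 before RefSeq's does, which bears on its values per length. With 69 to 87 Eef1a2 counts in Control libraries, counting error alone gives a coefficient of variation of 11.4% there.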
